A study of Mus musculus with 20 samples.

Results

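A set of 10 genes of the mouse aorta was examined: the glucocorticoid-induced genes Fkbp5, Tsc22d3, Zbtb16, Sgk1, Cebpd, Klf9, Ddit4 and Pdk4, and the metallothionein genes Mt1 and Mt2. They were chosen by name, as known targets of glucocorticoid or metal signalling, and are 10 of the 21078 genes counted. All 10 had a mean count of at least 5 and were among the 13124 genes tested. The animals were 20 wildtype male C57BL/6 mice of 10 to 12 weeks of age on regular chow. Of these, 10 mice were exposed to protons and 10 to gamma rays from a cesium source, with 1 mouse of each radiation type at whole-body doses of 0, 5, 10, 25, 50, 75, 100, 125, 150 and 200 cGy, and the thoracic aorta was taken 4 h later. All mice, the sham mice at 0 cGy included, were awake and restrained in chambers, and irradiation was kept to one part of the day in randomized order. No dose is replicated for a given type of radiation, so every test uses either the trend over doses or the 2 mice at each dose.

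Glucocorticoids reach cells from the adrenal cortex, with a daily rhythm and a surge on stress, and bind a receptor that chaperones hold in the cytoplasm. The bound receptor moves to the nucleus and raises transcription of a set of genes, several of which dampen inflammation, restrain growth or switch fuel use, and one of which, Fkbp5, feeds back on the receptor itself. Metallothioneins are small cysteine-rich proteins that bind zinc and copper, and their genes answer both to the metal sensor Mtf1 and to glucocorticoids.

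Each library held 6051657 to 6058006 counts, so that 3 counts, the smallest number taken as detectable, were 4.95e-05% of a library. Such limits cover counting error only, since these reads carry no molecular identifiers. Smooth muscle markers (5 of 5 tested, summed counts 160146 to 324203) were high in every mouse. The proton mouse of 75 cGy stood apart from the other mice. Its 8 brown adipocyte markers summed to 14941 against 946 to 5823 in the other 19, its 6 white adipocyte markers to 30717 and its 5 cardiac muscle markers to 15649, and its smooth muscle sum was the lowest. The sums of the 5 endothelial markers ran from 2102 to 7475. Cut at their widest gap, they gave a lower set of 8 mice (2102 to 3189) and an upper set of 12 mice (4071 to 7475). The next sums above that gap, 4071, 4846 and 5649, were almost as far apart, so the 2 sets are a division made for description. Other marker sums varied as well. Those of the 5 erythroid markers ran from 134 to 13794, of the 4 macrophage markers from 358 to 2331 and of the 5 fibroblast markers from 6494 to 20387. T and B lymphocyte markers were near 0, with none of 5 tested and summed counts of 0 to 43. In this bulk tissue, fewer cells of a type and less RNA per cell cannot be told apart. Libraries also differed in a property that followed the highest doses. The correlation across 9702 genes between a gene's deviation from its mean and its GC content lay between -0.401 and -0.349 in the 4 mice of 150 and 200 cGy, and between -0.0182 and 0.284 in the others.

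The promoters of 3 members are shown because their sequence holds the motifs through which the hormone receptor or the metal sensor is known to act. RefSeq promoter windows on build GRCm38.p6, each from 250 bases before to 50 bases after a transcript start, were found for 8 of the 10 members (15 windows). None was found for Zbtb16 and Cebpd. The full palindrome of the glucocorticoid response element, searched on both strands as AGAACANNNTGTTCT, occurred in 3 of 32851 promoter windows (0.00913%). Of the 3, 1 belonged to Sgk1, 189 bases before a transcript start, in the upstream window chr10:21993640-21993889 on the plus strand. A relaxed form, GNACANNNTGTNC, which overlaps the full palindrome, occurred in 0.387% of windows. Besides that Sgk1 window, 1 of the 6 windows of Sgk1, it was found in Mt1, 94 bases before the start in chr8:94178839-94179088 on the plus strand. Neither form was found in the windows of Fkbp5, Tsc22d3, Klf9, Ddit4, Pdk4 and Mt2. The core of the metal response element, TGCACNC or TGCGCNC on either strand, is far commoner, in 21.4% of windows. Mt2 held 3 such cores in chr8:94172368-94172617 on the plus strand, Mt1 held 1 and Ddit4 held 1. The 250 bases upstream of each start are printed 5′ to 3′, with capitals marking the palindrome in Sgk1, the relaxed form in Mt1 and the 3 metal response cores in Mt2. These matches are descriptions of letters and were not tested as binding sites.
Sgk1: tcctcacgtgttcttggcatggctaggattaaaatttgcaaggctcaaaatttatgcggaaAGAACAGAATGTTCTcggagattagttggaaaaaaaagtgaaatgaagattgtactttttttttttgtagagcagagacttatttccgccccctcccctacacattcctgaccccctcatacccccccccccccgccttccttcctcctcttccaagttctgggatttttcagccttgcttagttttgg
Mt1: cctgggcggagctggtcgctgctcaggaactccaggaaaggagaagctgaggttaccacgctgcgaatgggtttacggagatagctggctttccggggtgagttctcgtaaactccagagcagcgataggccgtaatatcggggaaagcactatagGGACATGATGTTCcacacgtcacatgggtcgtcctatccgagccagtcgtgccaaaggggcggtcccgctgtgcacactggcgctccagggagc
Mt2: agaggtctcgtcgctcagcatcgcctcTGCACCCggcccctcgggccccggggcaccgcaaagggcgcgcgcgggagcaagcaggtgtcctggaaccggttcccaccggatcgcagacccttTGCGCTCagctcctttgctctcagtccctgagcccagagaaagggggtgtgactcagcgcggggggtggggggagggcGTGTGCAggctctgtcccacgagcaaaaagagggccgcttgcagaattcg

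**Figure D1:**
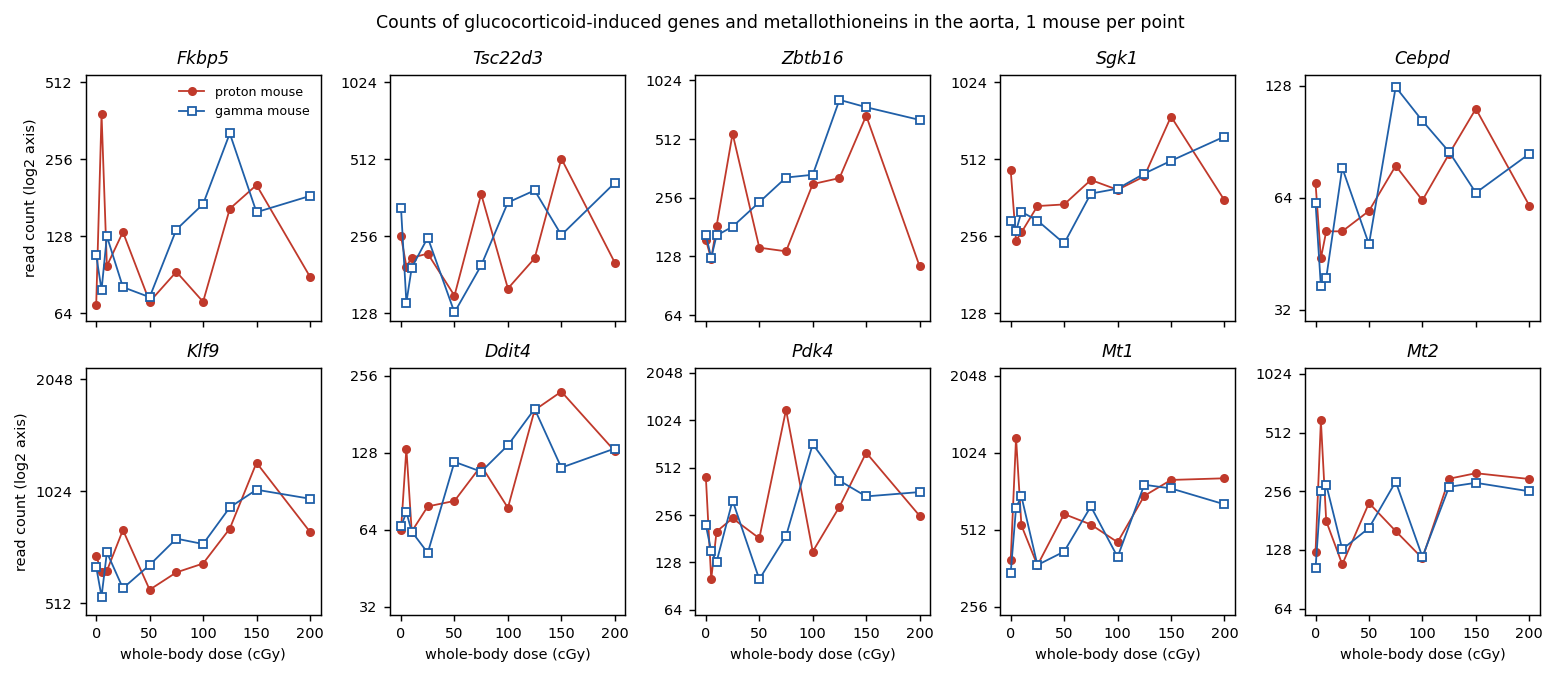
Read counts of the 10 genes (vertical, log2 axis) against whole-body dose in cGy (horizontal), with 1 mouse per point, filled red circles for protons and open blue squares for gamma rays. Zbtb16 in the gamma mice climbs from 165 at 0 cGy to 642 to 814 at the 3 highest doses, while the proton mouse of 200 cGy lies at 114.

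Of the 10 genes, 3 rose with gamma dose in edgeR's quasi-likelihood test at an adjusted p of 0.1, Zbtb16, Sgk1 and Klf9, and none rose with proton dose. Over all genes tested, 5.44% rose and 2.21% fell with gamma dose, and 1.6% rose and 0.16% fell with proton dose. The slope was positive for all 10 genes with gamma rays and for 9 of the 10 with protons, the exception being Fkbp5. The median slope of the 10 was 0.51 log2 units per 100 cGy with gamma rays and 0.33 with protons, where the median of all genes was 0.013 and 0.0018. The difference between the 2 slopes passed the test for none of the 10, and for no gene of the table.

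The 3 transcription factors among the members are DNA-binding proteins that carry the hormone signal to later genes. Zbtb16, a zinc finger repressor also known as PLZF, had the steepest gamma slope of the 10. Its gene lies at chr9:48462416-48644050 on the minus strand of mm9 and is protein-coding. In the gamma mice its counts ran from 126 at 5 cGy through a median of 284 to 814 at 125 cGy, with 746 at 150 and 642 at 200 cGy. The 3 gamma mice of 125 cGy and above were higher than the other 7, whose highest was 336 at 100 cGy. The slope was 1.38 ± 0.35 (SE, n = 10 mice) on the log2 scale per 100 cGy, or 2.60-fold, with an edgeR adjusted p of 0.0418. In the proton mice the lowest count was 114 at 200 cGy, the median 169.5 and the highest 675 at 150 cGy, and the next was 546 at 25 cGy. The high proton values thus lay at scattered doses. The proton slope was 0.41 ± 0.37 (SE, n = 10 mice, edgeR adjusted p = 0.724), and without the proton mouse of 150 cGy it was -0.13.

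Klf9, a zinc finger factor of the Krüppel-like family and a standard readout of glucocorticoid and thyroid hormone action, lies at chr19:23215716-23241401 on the plus strand and is protein-coding. It varied least between mice of the 10 genes. Its counts in the gamma mice were 534 at the lowest (5 cGy), 720.5 at the median and 1034 at the highest (150 cGy), and the mice of 125, 150 and 200 cGy, with 927, 1034 and 978, were above all others. The gamma slope was 0.42 ± 0.11 (SE, n = 10 mice, 1.33-fold per 100 cGy, edgeR adjusted p = 0.0369). The proton mice ranged from 557 at 50 cGy through a median of 671 to 1222 at 150 cGy, where the second highest was 813 at 125 cGy. The proton slope was 0.30 ± 0.11 (SE, n = 10 mice, edgeR adjusted p = 0.195) and fell to 0.15 without the mouse of 150 cGy.

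Cebpd encodes C/EBPδ, a leucine zipper factor of inflammation and fat cell differentiation. It lies at chr16:15887379-15888559 on the plus strand, and the annotation of this build lists it as a pseudogene. Its counts were low, from 37 through a median of 71.5 to 127 in gamma mice and from 44 through 62 to 111 in proton mice. Both lowest values came from the mice of 5 cGy. The slopes were 0.41 ± 0.21 with gamma rays and 0.36 ± 0.20 with protons (SE, n = 10 mice each), and neither passed the test (edgeR adjusted p = 0.295 and 0.475). With each dose left out in turn, the gamma slope ran from 0.30 to 0.58 and the proton slope from 0.20 to 0.60.

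The next 3 members act in kinase signalling and fuel use. Sgk1 is the serum and glucocorticoid-regulated kinase that controls ion channels and cell survival. The palindrome printed above is in 1 of its 6 promoter windows. Its gene lies at chr10:21601990-21719709 on the plus strand of mm9 and is protein-coding. In the gamma mice its count was lowest at 50 cGy (240), had a median of 347.5, and then ascended over the highest doses from 393 at 100 cGy through 450 and 505 to 628 at 200 cGy. That ascent had no exception from 50 cGy upward. The gamma slope was 0.58 ± 0.14 (SE, n = 10 mice, 1.49-fold per 100 cGy, edgeR adjusted p = 0.0305). In the proton mice the lowest was 246 at 5 cGy, the median 371.5 and the highest 752 at 150 cGy, and the sham mouse had the second highest, 463. The proton slope was 0.38 ± 0.15 (SE, n = 10 mice, edgeR adjusted p = 0.252), and it was 0.15 without the mice of 150 cGy and 0.63 without those of 200 cGy.

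Ddit4 encodes REDD1, an inhibitor of mTORC1 that is induced by glucocorticoids, low oxygen and DNA damage. It lies at chr10:59412423-59414518 on the minus strand and is protein-coding. Of the 10 members it had the smallest difference between its 2 slopes, 0.66 ± 0.22 with gamma rays and 0.63 ± 0.21 with protons (SE, n = 10 mice each). Proton minus gamma, the difference was -0.03 ± 0.31. Those of Cebpd (-0.06 ± 0.29), Mt1 (-0.08 ± 0.32) and Klf9 (-0.11 ± 0.15), among others, were likewise smaller than their SE. Neither slope of Ddit4 passed the threshold, with edgeR adjusted p-values of 0.104 and 0.182. The gamma counts were 52 at the lowest (25 cGy), 110 at the median and 190 at the highest (125 cGy), and the proton counts 63 (10 cGy), 98.5 and 222 (150 cGy). At 0 cGy the proton and gamma counts were 64 and 66, at 125 cGy 188 and 190, and at 200 cGy 130 and 133, so the pairs nearly coincided at these doses. They lay apart at 25 cGy (79 and 52), 50 cGy (83 and 118), 100 cGy (78 and 137) and 150 cGy (222 and 112). The proton mouse of 5 cGy had 133 against 75 in its gamma partner. Without that mouse the proton slope was 0.84 and passed the test (edgeR adjusted p = 0.0925), in a fit where 128 of 13124 genes rose and 7 fell with proton dose. For gamma rays the call hung on the settings: it was made with DESeq2 (adjusted p = 0.0468) and with library totals without TMM scaling (edgeR adjusted p = 0.0905). In these settings 708 and 854 of all genes rose with gamma dose.

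Pdk4, the kinase that shuts the pyruvate dehydrogenase complex and turns cells toward fat as fuel, lies at chr6:5433351-5446309 on the minus strand and is protein-coding. With dose accounted for, it varied most between mice. Proton counts ran from 100 at 5 cGy through a median of 248.5 to 1192 at 75 cGy, and gamma counts from 100 at 50 cGy through 268 to 722 at 100 cGy. The proton peak was at a middle dose. The gamma counts at 100, 125, 150 and 200 cGy (722, 423, 336 and 358) were above those of all other gamma mice. The rank correlation with gamma dose was 0.636 and did not pass (exact permutation adjusted p = 0.263). The gamma slope was 0.74 ± 0.47 and the proton slope 0.37 ± 0.49 (SE, n = 10 mice each), far from the threshold (edgeR adjusted p = 0.460 and 0.845). With each dose left out in turn, the proton slope ran from 0.14 to 0.78. The proton mouse of 75 cGy was also the one with the highest adipocyte and cardiac markers. Over the 20 mice Pdk4 followed the brown adipocyte markers (Spearman rho = 0.721, permutation p = 0.00044, adjusted p = 0.0126 over 100 relations of members with marker and clock lists; Pearson r = 0.819, and 0.649 without the 2 mice farthest from the median). Within the radiation types rho was 0.673 and 0.818 for proton and gamma mice. With the brown adipocyte score as a covariate, Pdk4 was called for both types, with slopes of 0.67 for protons (edgeR adjusted p = 0.0223) and 0.52 for gamma rays (edgeR adjusted p = 0.0282). That fit called more genes throughout. Of 13124 genes, 345 rose and 150 fell with proton dose, against 210 and 21 without the covariate. With gamma dose 1115 rose and 490 fell, against 714 and 290. Pdk4 also followed the endothelial markers over the 20 mice (Spearman rho = 0.772, permutation adjusted p = 0.008 over the 100 relations). Pearson's r was 0.807, and 0.783 without the 2 farthest mice, and rho was 0.770 in proton and 0.721 in gamma mice. Its counts were 182 to 1192 with a median of 337 in the 12 mice of the upper endothelial set. In the 8 of the lower set they were 100 to 336 with a median of 150.5, so that the ranges overlapped. The relation was also computed within each set, where the markers cover a narrower range. Spearman's rho was 0.559 in the upper set (permutation adjusted p = 0.254 over 4 relations, with Pearson r = 0.713, and 0.260 without the 2 farthest mice). It was 0.395 in the lower (exact permutation adjusted p = 0.443, with r = 0.647, and 0.182). The part of tissue composition in these Pdk4 values was not tested.

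Fkbp5 and Tsc22d3 are the members closest to the receptor pathway's own control. Fkbp5, a co-chaperone that lowers the receptor's affinity for hormone, lies at chr17:28536040-28654469 on the minus strand and is protein-coding. It was the only member whose fitted slopes had opposite signs, -0.22 ± 0.34 with protons and 0.70 ± 0.35 with gamma rays (SE, n = 10 mice each), and neither passed the test (edgeR adjusted p = 0.874 and 0.304). Its counts in the proton mice were 69 at 0 cGy, 95.5 at the median and 385 at 5 cGy, with 203 at 150 cGy as the second highest. In the gamma mice they were 74 at the lowest (50 cGy), 132 at the median and 323 at the highest (125 cGy). The sign of the proton slope turned on 1 animal. Without the proton mouse of 5 cGy the slope was 0.36.

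Tsc22d3 encodes GILZ, a leucine zipper protein that carries part of the anti-inflammatory action of glucocorticoids. It lies at chrX:137074067-137135198 on the minus strand and is protein-coding. Its counts ran from 150 through a median of 210.5 to 515 in proton mice and from 129 through 256 to 414 in gamma mice. Both lowest values were at 50 cGy, and the sham mice already had 256 and 329. Slopes of 0.28 ± 0.25 for protons and 0.45 ± 0.24 for gamma rays (SE, n = 10 mice each) did not pass the test (edgeR adjusted p = 0.713 and 0.326). Like Pdk4 (Spearman rho = -0.713) it was higher where smooth muscle markers were lower (rho = -0.720 over 20 mice, permutation p = 0.00041, adjusted p = 0.0126; Pearson r = -0.575, and -0.720 without the 2 farthest mice; rho = -0.612 in proton and -0.830 in gamma mice). It was also higher where brown adipocyte markers were higher (rho = 0.603, permutation p = 0.00583, adjusted p = 0.0729; Pearson r = 0.547, and 0.458 without the 2 farthest mice; rho = 0.794 in proton and 0.733 in gamma mice). With the endothelial markers rho was 0.626 over 20 mice (permutation adjusted p = 0.0593 over the 100 relations). Pearson's r was 0.634, and 0.605 without the 2 farthest mice, and rho was 0.491 in proton and 0.648 in gamma mice. Tsc22d3 counts were 150 to 515 in the upper endothelial set and 129 to 259 in the lower, with rho = 0.182 and 0.524 within them (permutation adjusted p = 0.574, and 0.393 by exact permutation).

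Mt1 and Mt2 lie next to each other on the plus strand of chromosome 8, Mt1 at chr8:96702989-96704225 and Mt2 at chr8:96696518-96697467 in mm9, and both are protein-coding. Per kilobase of annotated exon they were the most abundant members, with mean counts of 798 for Mt1 and 410 for Mt2 over 20 mice, against 229 for Klf9, 94.5 for Pdk4, 79.3 for Sgk1, 65.5 for Ddit4, 63.2 for Zbtb16, 59.4 for Cebpd, 59.2 for Tsc22d3 and 22.3 for Fkbp5. Neighbours in this order between Ddit4 and Tsc22d3 are closer than the spread between mice. Whether similar sequence between the metallothioneins moved reads from one to the other was not tested. Mt1 counts were 372 at the lowest, 563.5 at the median and 1174 at the highest in proton mice, and 348, 628.5 and 768 in gamma mice. Mt2 counts were 108, 201.5 and 591 in proton mice and 103, 256 and 287 in gamma mice. The same proton mouse of 5 cGy held both maxima, and the gamma sham mouse held both minima of its type. The dose slopes were small. For Mt1 they were 0.17 ± 0.22 with protons and 0.26 ± 0.23 with gamma rays, and for Mt2 0.10 ± 0.32 and 0.26 ± 0.34 (SE, n = 10 mice each), with edgeR adjusted p-values from 0.638 to 0.959. Without the proton mouse of 5 cGy the proton slopes were 0.51 for Mt1 and 0.64 for Mt2 (edgeR adjusted p = 0.199 and 0.278).

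**Figure D2:**
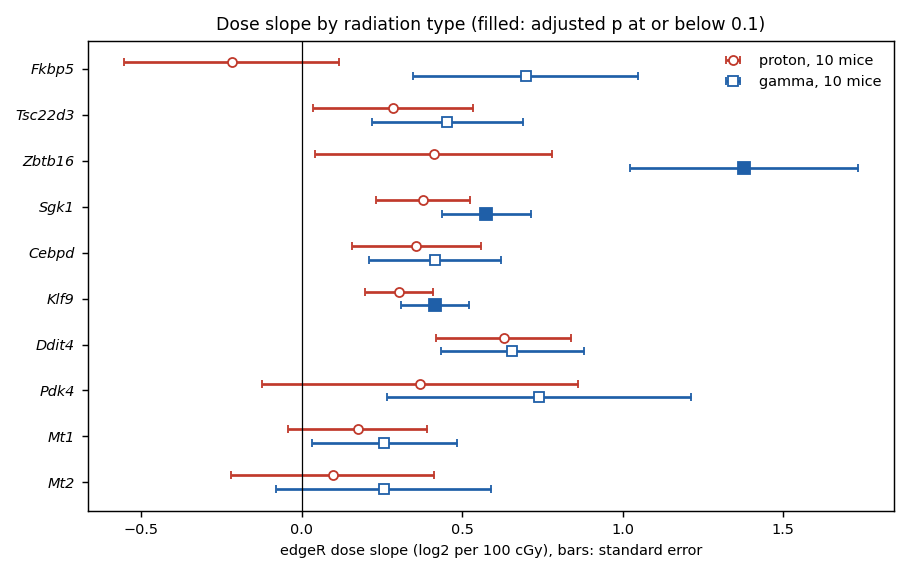
Dose slope of each gene in log2 units per 100 cGy (horizontal), red circles for protons and blue squares for gamma rays. Bars are 1 standard error of a slope over 10 mice, from scatter estimated in both radiation types together. Filled symbols passed an adjusted p of 0.1. The filled symbols are the gamma slopes of Zbtb16 (1.38), Sgk1 (0.58) and Klf9 (0.42), and only the proton slope of Fkbp5 lies below 0.

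The trend test that uses ranks alone gave the same 3 genes. The Spearman correlation of count with gamma dose was 0.915 for Zbtb16 (exact permutation over the 10 doses, adjusted p = 0.0426), 0.891 for Klf9 (exact permutation adjusted p = 0.0633) and 0.855 for Sgk1 (exact permutation adjusted p = 0.0868). Over all genes, 1.9% rose with gamma dose and 0.198% with proton dose by this test. With proton dose the highest rank correlation among the members was 0.588, for Ddit4 (exact permutation adjusted p = 0.675), and no member passed. From 0 to 125 cGy alone, which leaves 16 mice, no member passed. The gamma slope of Zbtb16 was then 1.74 per 100 cGy (edgeR adjusted p = 0.297), that of Sgk1 0.47 (edgeR adjusted p = 0.660) and that of Klf9 0.40 (edgeR adjusted p = 0.530). Of the 13124 genes, 29 rose and 5 fell with gamma dose over this range, against 714 and 290 over all doses. It leaves out the 4 mice of 150 and 200 cGy, and why the calls were lost was not tested. Without the pair of 200 cGy, the slope test called Zbtb16 alone, with slopes of 0.53 for Sgk1 (edgeR adjusted p = 0.205) and 0.47 for Klf9 (edgeR adjusted p = 0.193). In that fit 60 of all genes rose and 34 fell with gamma dose. Without the pair of 5 cGy it called Sgk1 alone, with slopes of 1.31 for Zbtb16 (edgeR adjusted p = 0.103) and 0.38 for Klf9 (edgeR adjusted p = 0.108). The rank test, left with 9 doses, called none of them without the pair of 75 or of 150 cGy. The mice of 150 and 200 cGy are those with the shifted GC content. With a correction for GC content and length the 3 gamma slopes were 1.37, 0.54 and 0.43 for Zbtb16, Sgk1 and Klf9 and were called (edgeR adjusted p = 0.0919, 0.0646 and 0.0923). In that fit 1.14% of all genes rose and 0.625% fell with gamma dose, and 0.617% rose and 0.0381% fell with proton dose. Cebpd has no GC value and entered that fit uncorrected.

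Which genes carried a difference between protons and gamma rays was asked in 2 ways. By slope, the largest differences, proton minus gamma, were those of Zbtb16 (-0.97 ± 0.52, unadjusted edgeR p = 0.0808) and Fkbp5 (-0.92 ± 0.49, unadjusted edgeR p = 0.0765), with an edgeR adjusted p of 0.999967 for each of the 10. The other 8 lay between -0.37 (Pdk4) and -0.03 (Ddit4). All 10 differences were negative, 7 of 10 without the proton mouse of 5 cGy, and they share the same 20 mice and are not independent. Over the whole table edgeR called 0% of genes for a slope difference, with 144 higher and 110 lower at an unadjusted p under 0.05, and DESeq2 also called 0. The Fkbp5 difference shrank to -0.32 without the proton mouse of 5 cGy, while that of Zbtb16 was -1.11 without it and -1.51 without the proton mouse of 150 cGy.

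By level at matched dose, no member was called either, where edgeR called 0% of all genes (494 higher and 537 lower with protons at an unadjusted p under 0.05) and DESeq2 17 higher and 53 lower. Zbtb16 came first, lower with protons by an average of -0.47 ± 0.33 (SE, 10 pairs of mice, unadjusted edgeR p = 0.183). Its count was lower with protons at 8 of 10 doses, most at 200 cGy (114 against 642), and higher at 25 cGy (546 against 182). An exact two-sided permutation test over all swaps of the mice within doses gave p = 0.248 for it, where the smallest possible p is 0.00195. For the other 9 genes the average lay between -0.19 (Fkbp5) and 0.17 (Pdk4), with exact permutation p-values from 0.271 to 0.760.

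Dose by dose, most members lay on the same side of the pair at the 4 highest doses. At 100 and at 125 cGy 9 of the 10 were lower in the proton mouse, at 150 cGy 9 of 10 were higher in it, and at 200 cGy 8 of 10 were lower, the exceptions being Mt1 and Mt2. At 200 cGy the proton and gamma counts were 89 and 184 for Fkbp5, 202 and 414 for Tsc22d3, 354 and 628 for Sgk1, and 797 and 978 for Klf9. At 150 cGy they were 515 and 259 for Tsc22d3, 752 and 505 for Sgk1, 222 and 112 for Ddit4, and 637 and 336 for Pdk4. The median difference of the 10, proton minus gamma, was -0.44 log2 units at 100 cGy, 0.46 at 150 cGy and -0.48 at 200 cGy, and at each dose it compares 1 mouse with 1 mouse. The 10 genes share these mice and are not independent. The share of all genes on each side of a pair was not analysed here, so these counts are not read as particular to the set.

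**Figure D3:**
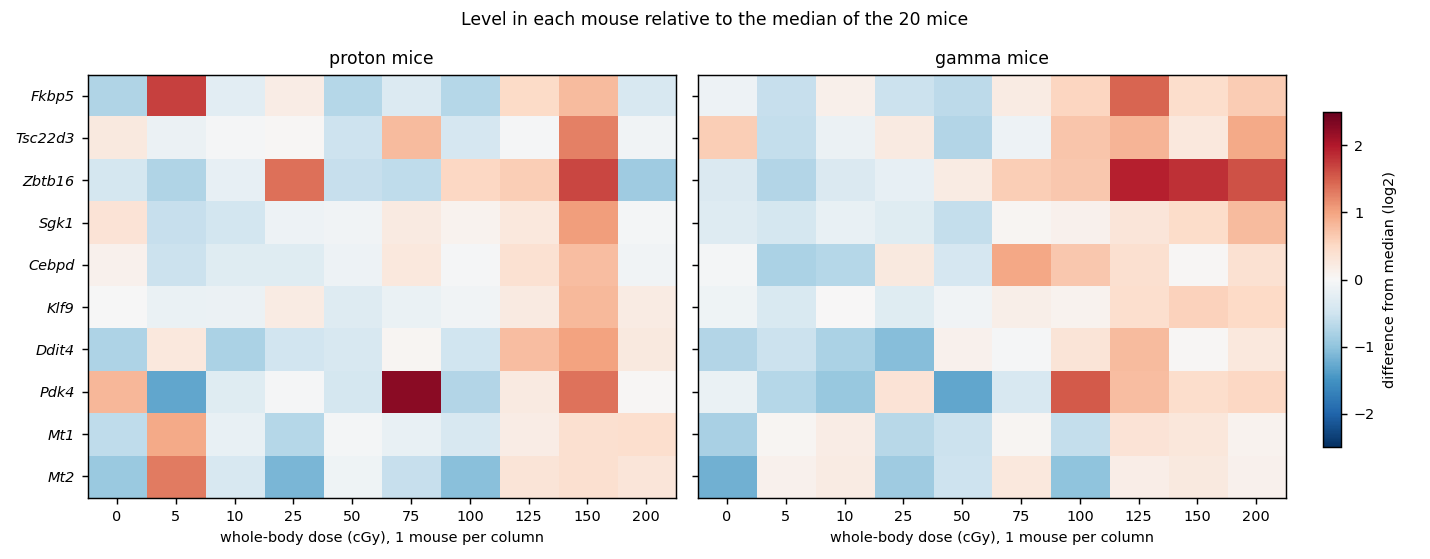
Level of each gene (rows) in each mouse (columns, by whole-body dose in cGy, protons left and gamma rays right) as log2(count + 1) minus the median of the 20 mice, red above and blue below. The proton column of 150 cGy is red for all 10 genes, and that of 5 cGy is red for Fkbp5, Ddit4, Mt1 and Mt2 and blue for the other 6.

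Among the proton animals, single mice stood out. In the proton mouse of 150 cGy all 10 genes were among the 3 highest of the 20 mice. Its library also had the lowest GC correlation of the 20, -0.401, and how many other genes were high in it was not analysed here. The proton mouse of 5 cGy was the highest for Fkbp5, Mt1 and Mt2 and among the 3 lowest for Zbtb16, Sgk1, Cebpd and Pdk4, so the set did not move as one in it. Among gamma mice those of 125, 150 and 200 cGy had 4, 3 and 3 members in the 3 highest, and none of the gamma mice from 0 to 50 cGy had any. The scatter was large for genes of this abundance. After removal of the dose slopes, the SD of log2 counts was 0.93 for Pdk4 and 0.73 for Zbtb16, where the median of genes with similar counts was 0.15 for both, and these values lay at the 99.2 and 98.7 percentile. Mt2 (98.1), Fkbp5 (97.1), Tsc22d3 (96.5) and Mt1 (94.9) followed, and the least variable was Klf9 (77.3).

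Most of the genes varied together from animal to animal. Of 45 pairs, 42 had a positive Spearman correlation over the 20 mice, with a median of 0.508. Of the 45, 25 passed an adjusted p of 0.1 in permutation tests over the 45 pairs, all positive. Over doses of 0 to 125 cGy only, 7 passed, 9 were negative and the median was 0.344. That range leaves out the mice with the shifted GC content, and why fewer pairs passed was not tested. For comparison, the median correlation of a member with 9817 genes of mean count at least 50, over the 20 mice, lay between -0.0256 (Mt1) and 0.0941 (Cebpd). How often pairs of other genes pass the same test was not analysed here. Mt1 and Mt2 were the closest pair (rho = 0.936, permutation p = 1e-05, the smallest that 100000 permutations can give, adjusted p = 0.000225; r = 0.967, and 0.948 without the 2 farthest mice). Tsc22d3 and Pdk4 followed (rho = 0.879, permutation p = 1e-05, adjusted p = 0.000225; r = 0.810, and 0.815 without the 2 farthest mice). Sgk1 with Pdk4 (rho = 0.760; r = 0.679, and 0.675), Sgk1 with Cebpd (rho = 0.753; r = 0.683, and 0.623) and Zbtb16 with Klf9 (rho = 0.753; r = 0.827, and 0.781) came next. With Tsc22d3, Zbtb16, Cebpd and Pdk4 the correlations of the metallothioneins lay between -0.0963 and 0.0967. With Sgk1 (rho = 0.290 for Mt1 and 0.187 for Mt2) and Klf9 (0.406 and 0.351) they did not pass either, although Klf9 with Mt1 did in the gamma mice (rho = 0.709, permutation adjusted p = 0.0782). They passed with Ddit4 (rho = 0.591 for Mt1 and 0.508 for Mt2) and Fkbp5 (rho = 0.536 and 0.509). The links to Fkbp5 weakened to r = 0.389 and 0.386 without the 2 farthest mice, from 0.615 and 0.588, and so rest in part on those animals.

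Within the radiation types the picture differed in extent. In the 10 gamma mice the median correlation of the 45 pairs was 0.612 and 19 passed, with Fkbp5 and Sgk1 at rho = 0.927. In the 10 proton mice it was 0.347 and 7 passed, Fkbp5 and Sgk1 were at rho = -0.201, and Sgk1 and Cebpd at rho = 0.960. The proton mouse of 5 cGy ranked 1 of the 20 mice for Fkbp5 and 19 for Sgk1. The proton value of this pair without that mouse was not analysed here. The difference between the types was not tested. Pairs that passed in both were Mt1 with Mt2 (rho = 0.939 in proton and 0.821 in gamma mice), Tsc22d3 with Pdk4 (0.842 and 0.903), Sgk1 with Pdk4 (0.770 and 0.758) and Cebpd with Pdk4 (0.778 and 0.685). After removal of dose and radiation type, 10 of the 45 pairs passed, with Mt1 and Mt2 at rho = 0.959, Tsc22d3 and Pdk4 at 0.794, Zbtb16 and Klf9 at 0.639 and Sgk1 and Pdk4 at 0.600. Among those no longer past the test were Sgk1 with Cebpd (0.430, permutation adjusted p = 0.195), Ddit4 with Mt1 and Mt2 (0.346 and 0.430, permutation adjusted p = 0.318 and 0.195) and Fkbp5 with Mt1 and Mt2 (0.496 and 0.502, permutation adjusted p = 0.102 for both). Without the proton mouse of 150 cGy 18 pairs passed, and Mt2 did not with Ddit4 or Fkbp5 (permutation adjusted p = 0.123 for both). Without that of 5 cGy 33 passed.

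**Figure D4:**
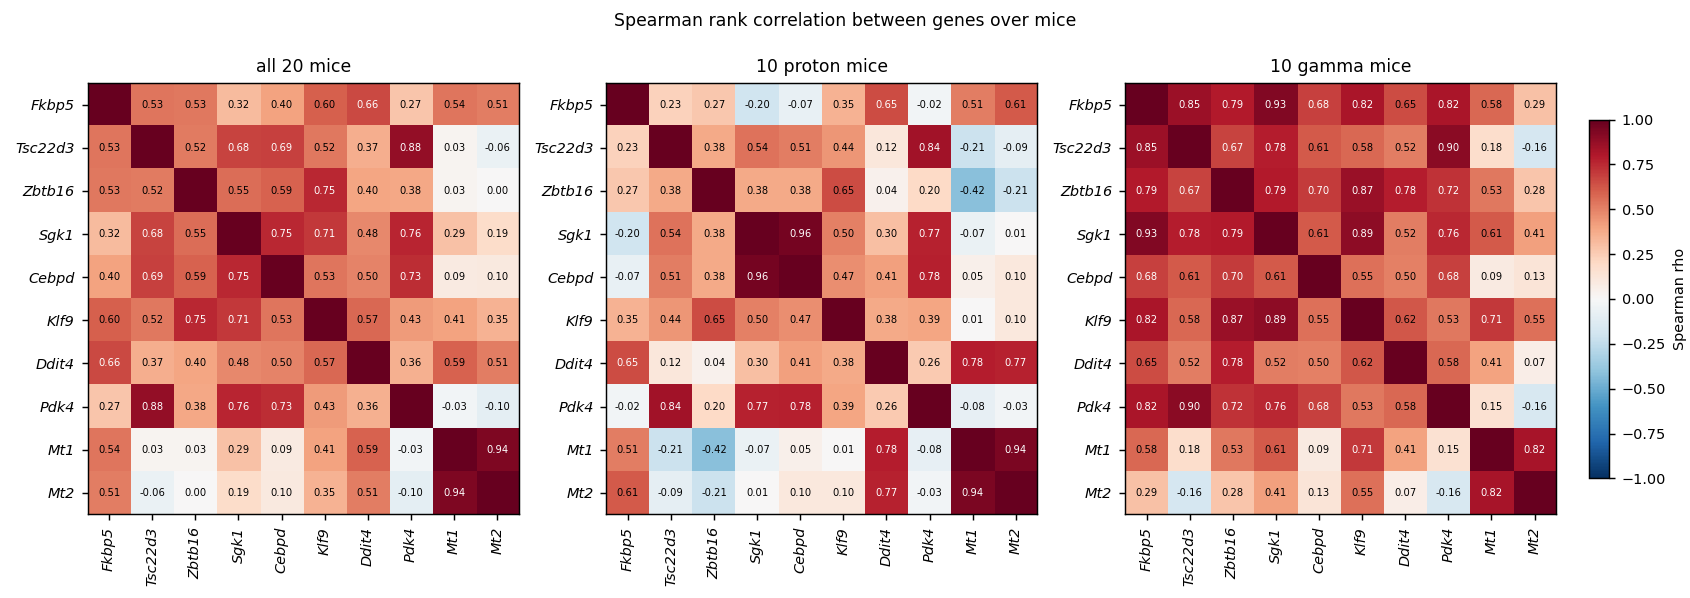
Spearman rank correlation between the counts of each pair of genes over all 20 mice (left), the 10 proton mice (middle) and the 10 gamma mice (right), red for positive and blue for negative, with the value printed in each cell. Mt1 with Mt2 and Tsc22d3 with Pdk4 are above 0.8 in all 3 panels, and Fkbp5 with Sgk1 is 0.93 in gamma mice and -0.20 in proton mice. The proton mouse of 5 cGy ranks 1 of 20 for Fkbp5 and 19 for Sgk1.

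Beyond the members, the genes with the most similar pattern over the 20 mice were listed 3 to a member, by Spearman correlation among 9817 genes, as a description. Klf9 was closest to Foxo3 (rho = 0.945), a forkhead factor of the insulin and stress response, then Dnajc18 (0.899) and Adamts1 (0.893). Pdk4 was closest to Pck1 (0.942), the rate-limiting enzyme of gluconeogenesis and glyceroneogenesis, then Acer2 (0.902) and Clpx (0.901), and Tsc22d3 to Ddhd1 (0.878), Pik3r1 (0.873) and Pck1 (0.869). Zbtb16 was closest to Plekha1 (0.877), Npy1r (0.857) and Net1 (0.844), and Sgk1 to Rab3gap1 (0.880), Snrk (0.869) and Sgms1 (0.852). The neighbours of Fkbp5 were Fam107a (0.856), Map3k6 (0.854) and Olfr1033 (0.781), and those of Cebpd were Dapk1 (0.842), Gpkow (0.805) and Pim3 (0.801). The neighbours of Ddit4 were Dcxr (0.797), Commd3 (0.782) and Rnf169 (0.781), and of these Dcxr rose with dose in both radiation types (slopes 0.67 for protons and 0.91 for gamma rays, edgeR adjusted p = 0.0143 and 0.00117), as did Commd3 (0.41 and 0.39, edgeR adjusted p = 0.00104 and 0.0017). Mt1 was closest to Ranbp6 (0.822), Cbs (0.809) and E130203B14Rik (0.806), and Mt2 to Ranbp6 (0.764), Tet2 (0.761) and Mier3 (0.758). All these points share the same 20 libraries.

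Other genes of the pathway were taken from lists chosen by known function. Calls of genes other than the members are from the fit without the GC and length correction, where 5.44% of all genes rose and 2.21% fell with gamma dose. With the correction these shares were 1.14% and 0.625%, and the corrected values of the list genes are not given here. Of 20 further glucocorticoid-induced genes tested, 4 rose with gamma dose, none fell, and none passed with proton dose, with median slopes of 0.34 and 0.10. The 4 were Klf15, a Krüppel-like factor of amino acid and lipid metabolism (slope 0.65 ± 0.15, SE, edgeR adjusted p = 0.0262), Hif3a, a hypoxia-inducible factor subunit (1.30 ± 0.34, edgeR adjusted p = 0.0423), Nfkbia, the inhibitor of NF-kappaB (0.46 ± 0.13, edgeR adjusted p = 0.0605), and the clock gene Per1 (0.77 ± 0.25, edgeR adjusted p = 0.0945). In proton mice their slopes were 0.39, -0.21, 0.46 and 0.35. Counts of Hif3a were low, 8 to 61 in gamma and 5 to 34 in proton mice. Tgm2, Glul, Anxa1 and Mertk, the most abundant of this list, had gamma slopes of -0.20, 0.33, 0.03 and 0.27 and did not pass.

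Of 12 tested genes for the receptor, its chaperones, coregulators and the enzymes that activate or inactivate the hormone, 1 rose and 3 fell with gamma dose, and none passed with proton dose. The receptor gene Nr3c1 itself had a slope of 0.08 ± 0.08 with gamma rays and 0.19 ± 0.08 with protons (SE, edgeR adjusted p = 0.706 and 0.309), with counts of 885 to 1351 in gamma and 960 to 1499 in proton mice. The 3 that fell are parts of the chaperone machinery that holds the receptor ready for hormone: Hsp90ab1 (slope -0.23 ± 0.07, edgeR adjusted p = 0.058), Fkbp4 (-0.16 ± 0.05, edgeR adjusted p = 0.0597) and Ptges3, also known as p23 (-0.20 ± 0.05, edgeR adjusted p = 0.0418). Ncoa2, a coactivator of the receptor, rose (0.32 ± 0.10, edgeR adjusted p = 0.091). Hsp90aa1, with a slope of -0.11, did not pass.

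**Figure D5:**
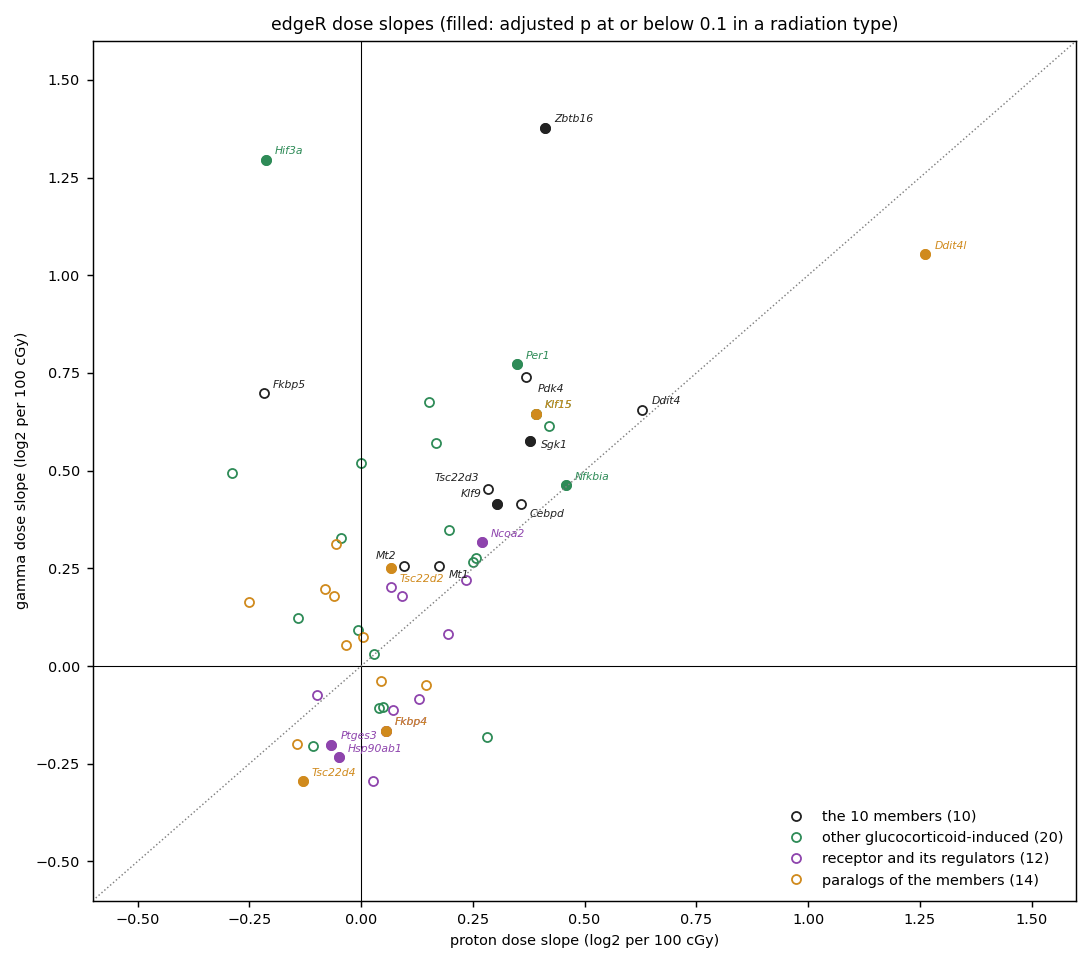
edgeR dose slope with protons (horizontal) against that with gamma rays (vertical), in log2 units per 100 cGy, 1 point per tested gene of 4 lists; filled points passed an adjusted p of 0.1 in a radiation type and the dotted line marks equal slopes. Klf15 and Fkbp4 belong to 2 lists each. Zbtb16 and Hif3a lie farthest above the line, and Ddit4 and its relative Ddit4l lie near it.

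Relatives of the members were compared to see whether families moved together. Of 14 tested paralogs, 1 rose with proton dose, and 3 rose and 2 fell with gamma dose. Ddit4l, the nearest relative of Ddit4 and likewise an inhibitor of mTORC1, rose in both radiation types, by 1.26 ± 0.18 with protons and 1.05 ± 0.19 with gamma rays (SE, edgeR adjusted p = 0.00142 and 0.00788), with counts from 14 to 109 and from 9 to 79. Tsc22d2 rose (0.25 ± 0.07, edgeR adjusted p = 0.0573) and Tsc22d4 fell (-0.29 ± 0.09, edgeR adjusted p = 0.0654) with gamma dose, and the other paralogs with a call were Klf15 and Fkbp4, given above. Pdk1, Pdk2 and Pdk3 had slopes between -0.20 and 0.20 and none passed. Of 4 tested metal handling genes none passed in either radiation type. The metal sensor Mtf1 had slopes of 0.08 with protons and 0.15 with gamma rays, and the zinc exporter gene Slc30a1, like the metallothioneins a target of Mtf1, 0.18 and 0.08. The zinc importers Slc39a14 and Slc39a10 had slopes between 0.11 and 0.15. Mt3 fell below the count filter, and Mt4 was not analysed here.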

How the data were processed

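Per the labels and the study's methods, the authors made polyA-selected, stranded libraries from the thoracic aorta of 20 mice, aligned them to mm9 with STAR 2.5.2a, after base calling with CASAVA 1.8.1, and resampled them to one depth with the PORT pipeline. The authors deposited sense-strand counts for each of 21078 genes, in 1 table and with no further scaling, and every column belonged to a sample of the study. All gene identifiers were found in GENCODE M1, an annotation of the same build, from which positions are given. The deposited intervals reach 202 bases farther at each end. The genes and gene lists were chosen with earlier results of these data known. Groups came from the sample labels.

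The 13124 genes that averaged 5 counts or more were fitted in edgeR 4.0.16 with TMM scaling and robust quasi-likelihood fits. One model had an intercept and a slope for each radiation type and tested each slope and their difference. Another compared protons with gamma rays with dose as a block. The SE of a log2 value is its size divided by the square root of F. Rank trends were exact one-sided permutation tests of Spearman's rho over all orders of the 10 doses. Adjusted p-values are by Benjamini-Hochberg over all genes tested, with a threshold of 0.1. Correlations over mice used log2(count + 1) and 100000 two-sided permutations, adjusted over the 45 pairs or over the 100 relations with lists. Mice were also divided at the widest gap in the summed endothelial counts. Relations with endothelial markers within each set, exact for the 8 mice, were adjusted over 4 and chosen after seeing the data. Mice are single animals. The p-values and SEs of the slopes measure scatter about the fitted dose lines, estimated over the mice of both radiation types together. An SE given with n = 10 mice therefore also draws on the other type. With no dose replicated within a type, that scatter mixes the spread between mice with any departure from a straight line. The comparison at matched dose rests on how the difference within pairs varied from dose to dose. Totals per mouse of 6051657 to 6058006 counts set the counting precision. The text names the 10 genes, list genes that passed a test or else up to 4 of highest mean count, and the 3 genes of mean count at least 50 closest to each member. The alternatives were DESeq2 1.42.0, no TMM scaling, gene filters of 1 count in all or of a mean of 50, leaving out each dose or single mice, 0 to 125 cGy only, a brown adipocyte covariate, a GC and length correction, other dose scales, other pseudocounts and a threshold of 0.05. Leaving out the proton mouse of 5 or of 150 cGy was chosen after seeing the data. The fits and the rank trend test were tested on simulated data. The programs were Python 3.11.15 with matplotlib 3.10.9, pandas 2.3.3, scipy 1.17.1 and numpy 2.4.6, and R 4.3.3. Antisense reads and introns were not analysed here.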

Additional observations from a re-analysis of the deposited data

Results flagged for a closer look

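In 7 of the 20 groups of 10 mice (10 genes in 2 radiation types), the highest count stood apart from the rest: its gap to the next, as a share of the group's range, was above Dixon's critical value of 0.466. For normally distributed values chance flags about 1 group in 20. The rule was applied here to untransformed counts, for which that rate was not tested, and the groups share mice. Among proton mice these were Fkbp5 at 5 cGy (385, gap 0.576 of the range), Mt2 in the same mouse (591, 0.567), Sgk1 at 150 cGy (752, 0.571), Klf9 at 150 cGy (1222, 0.615) and Pdk4 at 75 cGy (1192, 0.508). Among gamma mice they were Fkbp5 at 125 cGy (323, 0.558) and Pdk4 at 100 cGy (722, 0.481). The Pdk4 maxima fell on the 2 mice with the highest sums of brown adipocyte markers, 14941 and 5823, whose part in the result was not tested.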

How the results depend on the processing

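The gamma calls of Zbtb16, Sgk1 and Klf9 were made with DESeq2, without TMM, with either count filter, with dose as a rank, with the brown adipocyte covariate, with the GC and length correction and at a threshold of 0.05. They were lost, leaving 0 of 10 members, over 0 to 125 cGy only and with log2(dose + 1) as the dose scale. Of the 13124 genes, 29 rose with gamma dose over 0 to 125 cGy and 38 on the log2 scale, against 714 in the main fit. The first leaves out the mice of 150 and 200 cGy, and the cause was not tested for either. Leaving out each dose in turn gave 1 to 3 gamma calls, with 1 without the 5 cGy pair (Sgk1) and 1 without the 200 cGy pair (Zbtb16), while the gamma slopes stayed within 1.24 to 1.68 for Zbtb16, 0.53 to 0.61 for Sgk1 and 0.38 to 0.47 for Klf9. The gamma rank trend kept 1 call at a threshold of 0.05 and 1 with genes of at least 1 count, Zbtb16 both times, 0 over 0 to 125 cGy, and 0 to 3 over the doses left out, where 9 doses allow fewer orders. Proton calls numbered 1 with the brown adipocyte covariate (Pdk4), 1 without the proton mouse of 5 cGy (Ddit4) and 0 in every other setting, and no slope difference or difference at matched dose was called for a member in any setting. The proton slope changed sign, without a call in either direction, for Fkbp5 without the proton mouse of 5 cGy (0.36), for Tsc22d3 and Zbtb16 without that of 150 cGy (-0.046 and -0.13), for Tsc22d3, Mt1 and Mt2 over 0 to 125 cGy (-0.026, -0.15 and -0.34) and for Mt2 on the log2 dose scale (-0.0036). Over the doses left out it ran from -0.45 to 0.37 for Fkbp5, -0.046 to 0.53 for Tsc22d3, -0.13 to 0.89 for Zbtb16 and -0.024 to 0.65 for Mt2. Between 7 and 10 of the 10 slope differences were negative over all settings. Of the 45 pairs, 25 passed, 7 did over 0 to 125 cGy and 10 after removal of dose and radiation type. Pdk4 with Mt2 had rho = 0.044 without the proton mouse of 5 cGy. Mice were paired by dose, as a block and in the swap test; the sample numbers in the labels are not shared between groups and pair no mice. With 1 mouse per dose, the spread between mice of the same dose is unknown.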

Other observations

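Of 13 clock genes tested, which keep the daily rhythm of cells and of which Per1 also answers to glucocorticoids, 2 rose with gamma dose, Per1 (given above) and Clock (slope 0.26 ± 0.09, SE, edgeR adjusted p = 0.0929), and none passed with proton dose. Over all genes tested, 5.44% rose and 2.21% fell with gamma dose. The metallothioneins followed the mean level of the clock list from mouse to mouse, and none of the other 8 members did so at an adjusted p of 0.1 over 100 relations. The nearest were Fkbp5 (rho = 0.482) and Klf9 (rho = 0.477), with a permutation adjusted p of 0.198 for each. This level is the plain mean of the log2 values of the 13 genes and was not tested as a measure of clock phase. For Mt1, Spearman's rho was 0.713 over 20 mice (permutation p = 0.00058, adjusted p = 0.0126; Pearson r = 0.697, and 0.602 without the 2 farthest mice), with 0.588 in proton and 0.830 in gamma mice. For Mt2 it was 0.637 (permutation p = 0.00321, adjusted p = 0.0535; Pearson r = 0.666, and 0.579 without the 2 farthest mice), with 0.588 and 0.699. The hour at which each mouse was killed was not analysed here.

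Of 7 tested genes that glucocorticoids are known to repress, none passed in either radiation type. Mmp3, Vcam1, Icam1 and Ptgs2, the most abundant of them, had gamma slopes of 0.03, 0.19, 0.43 and 0.43 and proton slopes of -0.16, 0.24, 0.37 and 0.30.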
